A study of Mus musculus with 28 samples.

Results

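The 6 miRNAs described here, mmu-mir-6538, mmu-mir-2137, mmu-mir-1961, mmu-mir-5126, mmu-mir-712-5p and mmu-mir-714, are called the selected miRNAs. They were picked by name from the 607 miRNAs listed in any of the 4 deposited tables, because earlier results of these data had them high after ozone (O3) in mice in which surfactant protein A (SP-A) was knocked out (KO). The change from filtered air (FA) to O3 in those mice is therefore what chose them, and it is given below as a description without a test. All 6 were listed in all 4 tables, which share 308 miRNAs, and all 6 passed the filter on low values in each table. In the table of KO females miR-712-5p passed through its O3 libraries alone, and in KO mice miR-714, and miR-712-5p in males, reached the filter in 2 of 3 FA and all 3 O3 libraries.

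Small RNA was sequenced from alveolar macrophages (AM), lavaged from mice that breathed FA or O3 for 3 h and then recovered for 4 h. The co-ex mice were SP-A KO mice of the C57BL/6J strain made to carry the human SP-A1 (6A2) and SP-A2 (1A0) variants, the KO mice carried no SP-A, so every group lacked mouse SP-A, all were 12 weeks old, and females were synchronized for the estrous cycle. The co-ex groups (females and males, FA and O3) held 4 libraries each and the KO groups held 3 each. The study describes groups of 4 animals, and why the KO groups held 3 libraries is not given. A library held 41542 to 2082034 reads on miRNAs (median 490152), the labels do not tie libraries to named animals, and p-values measure the spread between libraries.

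A miRNA is cut from a hairpin precursor to a short RNA, and its seed, the bases just after the first, pairs with target messages. A small RNA library also holds short pieces of abundant RNAs, among them ribosomal RNA and its spacers, and a read counts for a miRNA wherever its sequence matches. miR-712 is a known case, described as cut from a spacer of the ribosomal RNA precursor, and its name is kept here with its arm (5p). Whether the selected miRNAs behave as 1 set of such pieces is the question behind the comparisons below.

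The mature sequences of 4 of the 6 selected miRNAs were found in RefSeq (build GRCm38.p6), and they are shown since they are what a read must match to be counted, with let-7a-5p for comparison and the seed (bases 2 to 8) in capitals.
miR-6538: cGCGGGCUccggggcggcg
miR-2137: gCCGGCGGgagccccagggag
miR-5126: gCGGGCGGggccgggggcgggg
miR-1961: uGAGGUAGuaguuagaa
let-7a-5p: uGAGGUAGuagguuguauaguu

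miR-6538, miR-2137 and miR-5126 are rich in G and C and miR-1961 is not. G and C made up 94.7% of the bases of miR-6538, 85.7% of miR-2137, 100% of miR-5126 and 35.3% of miR-1961, against a median of 50% over the 517 listed miRNAs with a sequence. Of those 517, 7 exceeded 80%, and 3 of the 7 were selected miRNAs. The other 4 (miR-149-3p, miR-5122, miR-8109 and miR-5130, named after their values were seen) reached at most a normalized value of 131 in any library. The longest stretch that 2 of the 4 sequences shared was 7 bases (miR-6538 and miR-5126), so a read of one would not match another whole.

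miR-1961 is 17 bases long, and 2 of the 517 sequences, itself included, are that short. It carries the seed of the let-7 family, shared with 10 other listed miRNAs, and its first 13 bases equal those of let-7g-5p and let-7i-5p. No other listed miRNA had the seed of miR-6538, miR-2137 or miR-5126. miR-6538 lies at chr12:26414970-26414988 on the minus strand, in an intron of Rnf144a and in its direction. miR-2137 lies at chrX:72992113-72992133 on the plus strand, in an intron of Zfp185 and in its direction. miR-1961 (chr5:92788465-92788481, minus strand) lies in an intron of Shroom3 and against it, and miR-5126 (chr1:84695890-84695911, plus strand) lies against a UTR exon of Dner, by the GENCODE annotation of the same build.

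The 4 sequences were searched in the 357 transcripts annotated as ribosomal RNA, the longest of 1849 bases. None of the 4 was found whole, with no mismatch or with 1. The longest exact stretch was 8 bases for miR-6538 and miR-2137, 10 for miR-5126 and 11 for miR-1961, and the median over the 517 miRNAs was 9. None of the 517 was found whole. 28S ribosomal RNA and the ribosomal precursor with its spacers were not among the transcripts searched, so the search says nothing about them.

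Together the 6 selected miRNAs took from 0.0429% (95% Wilson interval 0.0396 to 0.0464, KO males, FA, replicate 1) to 29.1% (28.6 to 29.5, co-ex females, O3, replicate 1) of the reads of a library. These intervals cover counting error only. Co-ex females held the most, with 20.2%, 1.60%, 14.4% and 18.3% after FA and 29.1%, 15.1%, 3.06% and 8.11% after O3. miR-2137 alone ranked first among all miRNAs in 3 co-ex female libraries, and reached 15.1% (14.8 to 15.5) of the reads of 1 of them.

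The groups, ordered by the median share of the 6 miRNAs, were co-ex females FA (16.4%), co-ex females O3 (11.6%), KO females O3 (1.83%), co-ex males O3 (1.32%), KO males O3 (1.02%), co-ex males FA (0.394%), KO females FA (0.295%) and KO males FA (0.0588%). Neighbours in this order overlapped, except KO females O3 (1.67% to 2.03%), which lay below co-ex females O3 (3.06% to 29.1%). The share is relative to the other miRNAs of a library, so more of these RNAs and less of the others cannot be told apart.

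**Figure D1:**
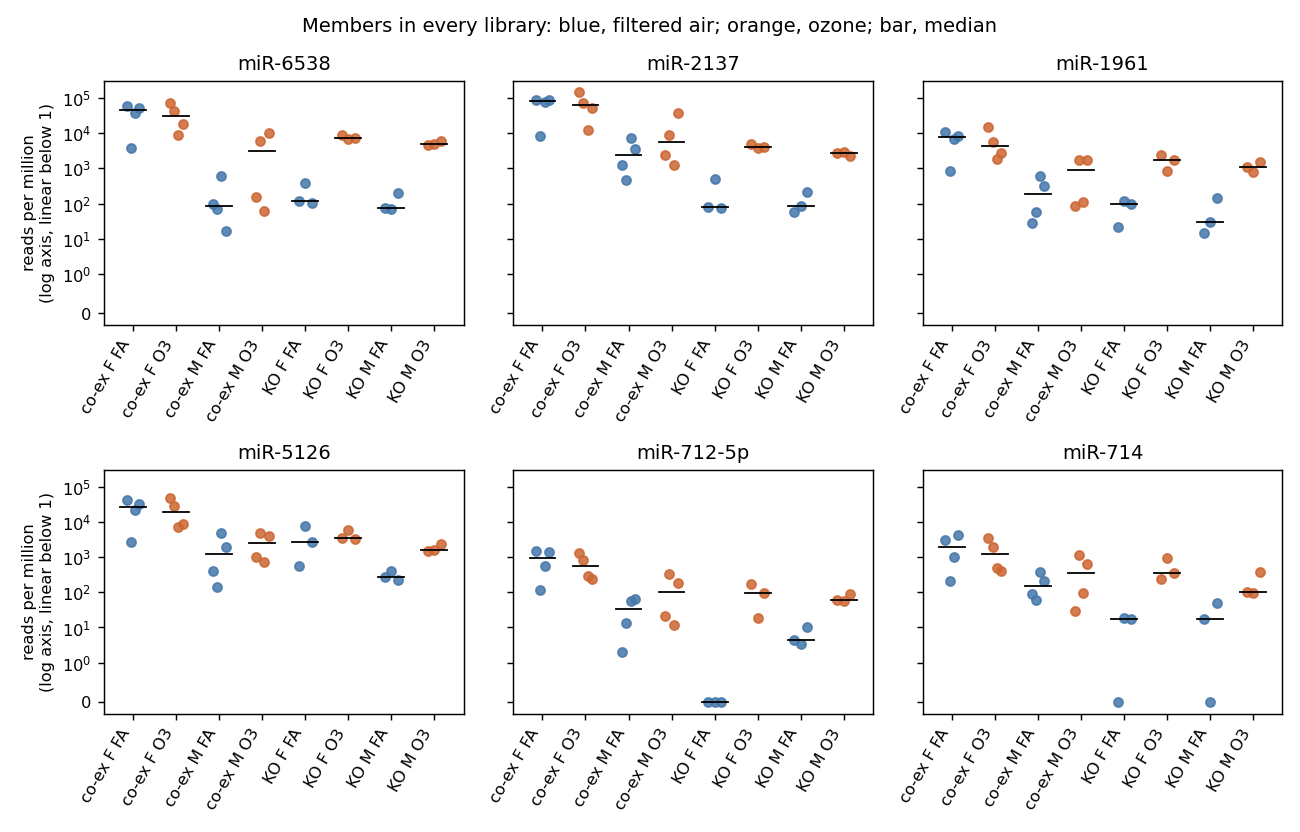
RPM (reads scaled to the library total) of each selected miRNA in each of the 28 libraries (log axis, linear below 1), with FA in blue, O3 in orange and the group median as a bar. In KO, O3 libraries lie above FA libraries for each miRNA except miR-5126 in females, and co-ex females are high after both exposures.

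After O3, KO mice of both sexes held more reads of 5 of the 6 miRNAs, the pattern that chose them. In KO females every O3 library lay above every FA library for 5 of the 6, where this held for 19.1% of the 319 miRNAs past the filter, and in KO males for 6 of 6, where it held for 7.73% of 440. Nothing is read from these counts, since this contrast chose the members. By size of the fitted change miR-6538 stood at place 1 of 440 in KO males and 4 of 319 in KO females, and miR-5126 at place 27 and 120.

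miR-6538 was 66.6, 224 and 53.8 after FA and 4547, 3334 and 3520.4 after O3 in KO females, in the normalized values of the deposited table. In KO males it was 104, 92.2 and 285 after FA and 5392, 5594 and 7213 after O3. The log2 change was 5.32 ± 0.53 (SE, n = 3 and 3) in females and 5.42 ± 0.52 (n = 3 and 3) in males, and the FA and O3 libraries stood far apart in both sexes.

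miR-2137 was 44.6, 289 and 39.1 after FA and 2468, 1762 and 2026 after O3 in KO females. It was 79.2, 115 and 321 after FA and 3240.4, 3244 and 2658 after O3 in KO males. Its log2 changes were 4.67 ± 0.72 and 4.40 ± 0.57, again with no overlap. miR-1961 went with them, at 11.9 to 68.8 after FA and 409 to 1212 after O3 in KO females and at 21.3 to 212 and 909.7 to 1800.25 in KO males (log2 changes of 4.41 ± 0.74 and 4.48 ± 0.85).

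miR-712-5p and miR-714 were the least abundant of the 6 in KO mice after O3. In KO females miR-712-5p had no read in the 3 FA libraries, which allows a normalized value of up to 1.69 to 2.20 in each (3 reads). After O3 it was 84.9, 8.61 and 45.5. The mean after O3, 46.3, was 23.2-fold the mean of those limits, without counting error on the O3 side. The value of 8.61 rested on 2 reads. In KO males it was 6.10, 4.46 and 14.9 after FA and 71.7, 65.2 and 109 after O3 (log2 change 3.25 ± 0.65).

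miR-714 was 0, 10.99 and 9.08 after FA and 121, 435 and 168 after O3 in KO females. In KO males it was 25.4, 0 and 73.1 after FA and 121, 112 and 456 after O3. Its log2 changes, 5.39 ± 1.18 and 3.88 ± 1.57, came with wide errors, and 1 FA library in each sex held no read. Without that library (FA replicate 2) the change in KO males was 2.06, and edgeR gave 2.82.

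miR-5126 stood apart from the other 5 in KO females. It was 310.4, 4604 and 1384 after FA and 1764, 2829.8 and 1559 after O3, so its FA libraries spanned its O3 libraries, and the log2 change was 0.66 ± 0.83. With edgeR on the recovered reads the change was -0.041. The overlap came from FA replicate 2, since FA replicates 1 and 3 lay below every O3 library. The fitted change was 1.59 when FA replicate 2 was dropped and -0.35 when FA replicate 1 was. FA replicates 2 and 3 had the highest library codes of the KO females. They had 291 and 298 miRNAs with a read, against 365 in FA replicate 1 and 305 to 384 after O3. The part of the library set in this exception was not tested. In KO males miR-5126 was 373, 529 and 334 after FA and 1739.6, 1778 and 2915 after O3 (2.36 ± 0.41), with no overlap.

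**Figure D2:**
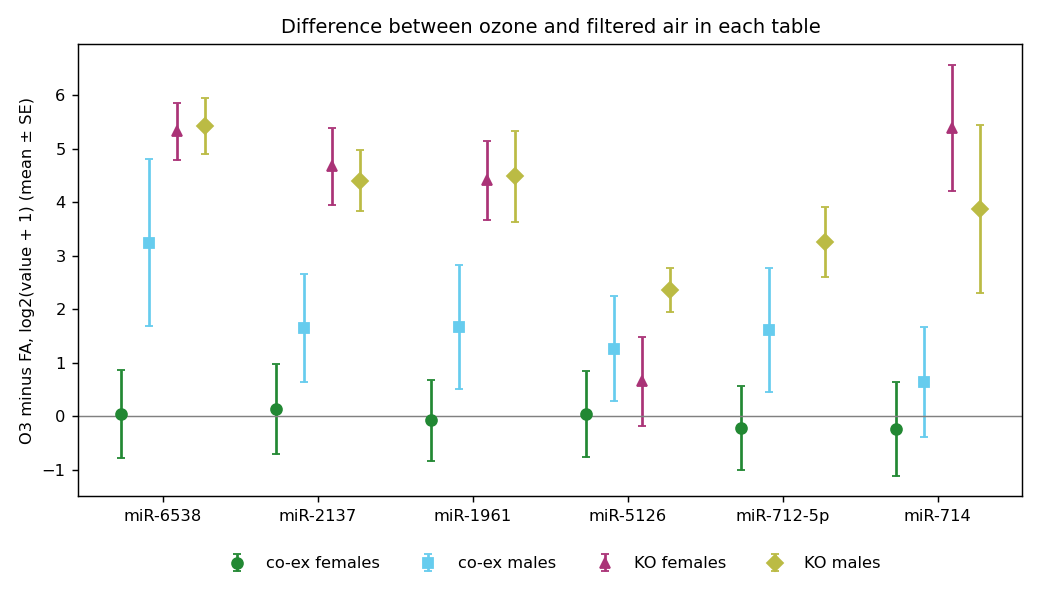
Fitted difference between O3 and FA in log2(value + 1), mean ± SE, for each selected miRNA in the 4 tables. The KO points are the contrast that chose the miRNAs, co-ex females lie near 0, and miR-712-5p in KO females is left out because its FA libraries held no read.

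Other measures moved with the O3 libraries of KO mice. A list of 14 miRNAs of airway and alveolar epithelium took 0.239% to 0.591% of reads after FA and 2.98% to 5.49% after O3 in KO females. Of its 13 members past the filter, 10 rose (limma, Benjamini-Hochberg adjusted p under 0.1), where 10% of all 319 rose. The list was chosen with earlier results of these data known, so its counts are given as a description. In KO males 1 of 14 rose (0.909% of all 440), or 13 of 14 without FA replicate 3 (13.8% of all 479 tested), and their summed share was 0.274%, 0.347% and 3.25% after FA and 2.89% to 3.73% after O3. FA replicate 3 of the KO males stood apart from the other FA libraries of its group, with myeloid miRNAs at 4.25% against 16.7% and 22.3% of reads and endothelial miRNAs at 0.718% against 0.00107% and 0.00112%. Its epithelial share lay within the O3 range, while the 6 selected miRNAs took 0.0847% (0.0791 to 0.0906) of its reads, against 1.01% to 1.24% after O3. Depth also differed, at 744541 to 1002869 reads after FA and 111080 to 634775 after O3 in KO females, while in KO males the ranges, 981552 to 1787051 and 919150 to 2082034, overlapped. Library codes differed too. Those of FA replicates 2 and 3 in KO females and FA replicate 3 in KO males were the highest of all KO libraries. The part of depth, of other cells and of the library codes in the KO differences was not tested beyond these values.

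Co-ex mice were not used to choose the miRNAs, so O3 and FA could be compared in them by a test. Within each sex the library codes of FA and of O3 form separate unbroken runs, so exposure coincides there with the order of the libraries. The test cannot separate exposure from that order. None of the 6 was called in co-ex females (adjusted p 0.969 to 0.982 for the 6, limma with Benjamini-Hochberg adjustment), where 0.369% of the 271 miRNAs tested were called. At an unadjusted p under 0.05 the count was 0 as well (5.9% of the 271), and edgeR and DESeq2 called 0 of the 6 (0.435% and 0.275% of the miRNAs they tested). miR-6538 was 9087, 649, 6207 and 7366 after FA and 11968, 6408, 1330.2 and 2988 after O3, and the groups overlapped throughout.

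miR-2137 was 13068.5, 1408, 12509 and 12037 after FA and 25263.5, 11289, 1739 and 8121 after O3 in co-ex females. The log2 changes of the 6 lay between -0.24 (miR-714) and 0.13 (miR-2137), with 95% intervals that reached from -2.11 to 1.92 (n = 4 and 4). Changes within these intervals could not be told from none. miR-1961, miR-5126, miR-712-5p and miR-714 also overlapped, and each had its lowest FA value in replicate 2, the deepest library of this sex.

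In co-ex males all 6 fitted changes were above 0 and none was called (adjusted p 0.944 for each of the 6, limma), where 0% of 312 miRNAs were called, 11 (3.53%) had an unadjusted p under 0.05 and none of those 11 was a selected miRNA. edgeR and DESeq2 called 0 of the 6 too, and 0% of all miRNAs. miR-6538 was 38.4, 23.5, 209.8 and 4.38 after FA and 54.9, 2164, 22.3 and 3109 after O3, with a log2 change of 3.24 ± 1.56 (n = 4 and 4, 95% interval -0.17 to 6.65), the highest estimate of the 312. O3 replicates 2 and 4 were high and O3 replicates 1 and 3 lay among the FA libraries.

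miR-2137 followed the same libraries in co-ex males, at 462, 151, 2433 and 929.6 after FA and 843, 3305.5, 466 and 11885 after O3 (1.65 ± 1.01). miR-1961 was 10.97 to 207 after FA and 617 and 532 in O3 replicates 2 and 4, with 30.2 and 40.3 in the others (1.67 ± 1.15). miR-712-5p (1.62 ± 1.16), miR-5126 (1.26 ± 0.98) and miR-714 (0.64 ± 1.03) were highest in O3 replicate 2 (122, 1734 and 409.6), with O3 replicate 4 next for miR-712-5p and miR-714 and FA replicate 3 (1673) next for miR-5126. The median change of the 6 was 1.64, against 0.18 over all 312. The epithelial list took 5.34% of reads in O3 replicate 2 and 1.499% in replicate 4, against 0.751% in replicate 1 and 0.481% in replicate 3. After FA it took 0.624% to 3.86%. Its part in the values was not tested.

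**Figure D3:**
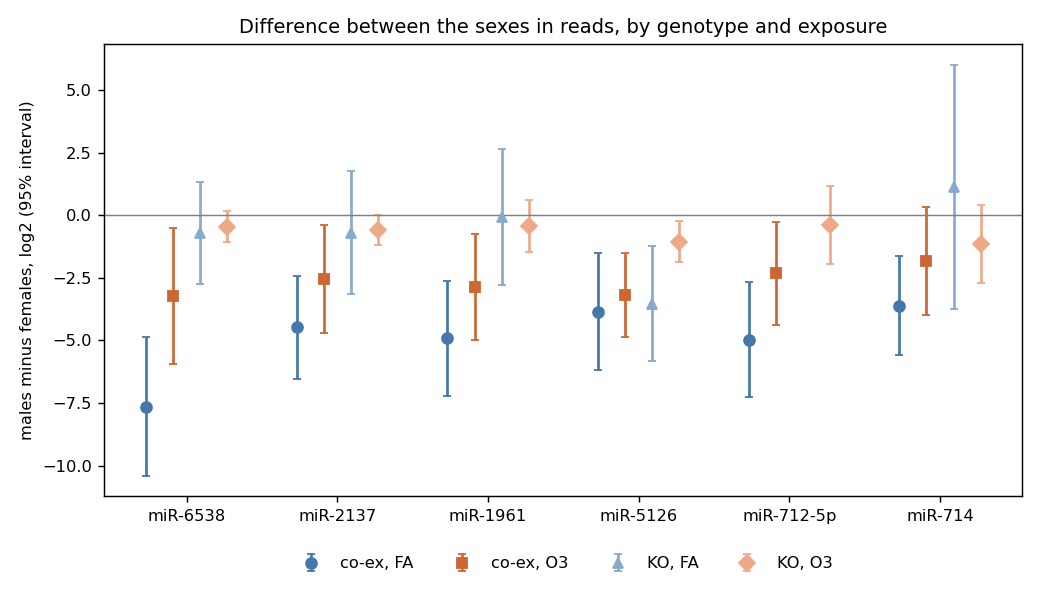
Difference between males and females in log2 reads from edgeR, with 95% intervals, for each selected miRNA by genotype and exposure. After FA, the co-ex intervals lie wholly below 0 for all 6, and miR-712-5p was not tested in KO after FA.

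The sexes were compared on the recovered reads, since values of separately normalized tables share no scale. In co-ex mice the library codes of males and of females form separate unbroken runs, and each sex has its own table. Sex in co-ex mice therefore coincides with the set of libraries, and these comparisons cannot separate a sex difference from a difference between library sets. Among co-ex mice after FA all 6 selected miRNAs were lower in males (edgeR quasi-likelihood test with TMM, Benjamini-Hochberg adjusted p 0.00688 to 0.0457), where 12.2% of the 238 miRNAs tested were lower in males. DESeq2 called all 6 as well (19.4% of all miRNAs in either direction). miR-6538 took 0.383% to 5.92% of reads in females and 0.00165% to 0.0609% in males, a log2 difference of -7.65 ± 1.28 (SE, n = 4 and 4). It was the largest difference among the 238 miRNAs, and every female library was above every male library.

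miR-2137 took 0.832% to 8.51% of reads in co-ex females and 0.0455% to 0.706% in co-ex males after FA (-4.48 ± 0.94, adjusted p 0.0115 by edgeR). miR-1961 took 0.0859% to 1.11% and 0.00285% to 0.0601% (-4.92 ± 1.05, adjusted p 0.0115 by edgeR), and miR-712-5p 0.0119% to 0.149% and 0.000204% to 0.00660% (-4.97 ± 1.06, adjusted p 0.0115 by edgeR). These 4 did not overlap between the sexes, as for 8.82% of the 238 miRNAs (female above male). miR-5126 (-3.85 ± 1.07, adjusted p 0.0457 by edgeR) and miR-714 (-3.61 ± 0.90, adjusted p 0.0332 by edgeR) did overlap. Leaving out female replicate 1, female replicate 4 or male replicate 1 ended both calls, with adjusted p of 0.104 to 0.207 for miR-5126 and 0.102 to 0.149 for miR-714 by edgeR.

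After O3 the co-ex differences had the same sign and were mostly not called. miR-5126 was lower in males (-3.18 ± 0.77, adjusted p 0.0492 by edgeR), and the other 5 ranged from -1.83 ± 0.99 (miR-714) to -3.23 ± 1.25 (miR-6538), with adjusted p from 0.115 to 0.238. Of the 244 miRNAs tested, 1.64% were lower in males by this test. In shares of reads every female library was above every male library for 2 of the 6, miR-1961 and miR-5126 (4.92% of the 244). The count of selected miRNAs called depended on the libraries and the tool. DESeq2 called 5 (20.6% of all in either direction). The test called 0 when any of female libraries 1, 2 and 4 or male libraries 1 and 3 was left out, 3 when female library 3 was, 4 when male library 2 was and 2 when male library 4 was. The share of all miRNAs called in each of these refits is not reported here, so nothing about the selected miRNAs is read from the counts. Whether the sexes differed more after FA than after O3 was not tested.

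Other measures of the co-ex libraries after FA are given beside this. Red cell miRNAs took 1.28% to 13.7% of reads in females and 0.0993% to 0.446% in males, with no overlap. Depth and the epithelial share overlapped between the sexes. Females had 93520 to 488993 reads after FA and males 126398 to 891030, with epithelial shares of 2.26% to 5.18% in females and 0.624% to 3.86% in males. 4 of the 12 epithelial miRNAs tested were lower in males (median of the 12 -0.82, against -4.70 for the selected miRNAs and 0.09 for all 238). The part of depth, red cells, other cells and the library set in the sex difference was not tested.

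In KO mice no selected miRNA was called between the sexes (edgeR; 0% called of 301 tested after FA and of 311 after O3). After FA, 5 could be tested and 1 had an unadjusted p under 0.05 (7.64% of all 301), miR-5126 (-3.53 ± 0.97, adjusted p 0.507 by edgeR, adjusted p 0.0421 by DESeq2), at 0.0548% to 0.773% of reads in females and 0.0228% to 0.0398% in males. DESeq2 called no other selected miRNA there (3.13% of all miRNAs were called), and miR-5126 alone of the 5 had every female library above every male library, as did 10.6% of all 301. After O3, 1 of 6 had an unadjusted p under 0.05 (9% of all 311), again miR-5126 (-1.06 ± 0.36, adjusted p 0.425 by edgeR), and DESeq2 called 0 (1.84% of all). Shares of miR-6538, miR-2137 and miR-5126 were higher in every female than in every male library after O3 (8.36% of all 311). The 95% interval of the difference after O3 ran from -1.08 to 0.16 for miR-6538 and from -1.21 to 0.01 for miR-2137.

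The selected miRNAs varied together from library to library. The mean of each group was removed, which takes out the mean difference that chose them. It does not take out the choice itself, which used the KO libraries among these 28. The correlations, their p-values and the comparison with other pairs are therefore not free of that choice. All 15 pairs correlated positively over the 28 libraries. Pearson's r ran from 0.63 (miR-712-5p and miR-714) to 0.89 (miR-1961 and miR-712-5p) and Spearman's rho from 0.70 to 0.90. All 15 had an adjusted permutation p under 0.1 (largest 0.0118 for r and 0.00306 for rho, 100000 permutations of libraries within groups, Benjamini-Hochberg over 15 pairs). Without the 2 libraries farthest from the median of the first miRNA, r was 0.54 to 0.87. The median r of the 15 pairs was 0.72, against 0.01 over the 26335 pairs of the 230 miRNAs that passed the filter in all 4 tables, of which 3.32% had an r as high as the lowest selected miRNA pair.

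Within single tables the median r of the 15 pairs was 0.96 in co-ex females, 0.79 in co-ex males, 0.53 in KO females and 0.71 in KO males (8, 8, 6 and 6 libraries), and the lowest pair was below 0 in both KO tables. Library totals are shared by all pairs. With residuals also regressed on the log2 library total, chosen after the data were seen, the median was 0.64 and the range 0.44 to 0.88.

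**Figure D4:**
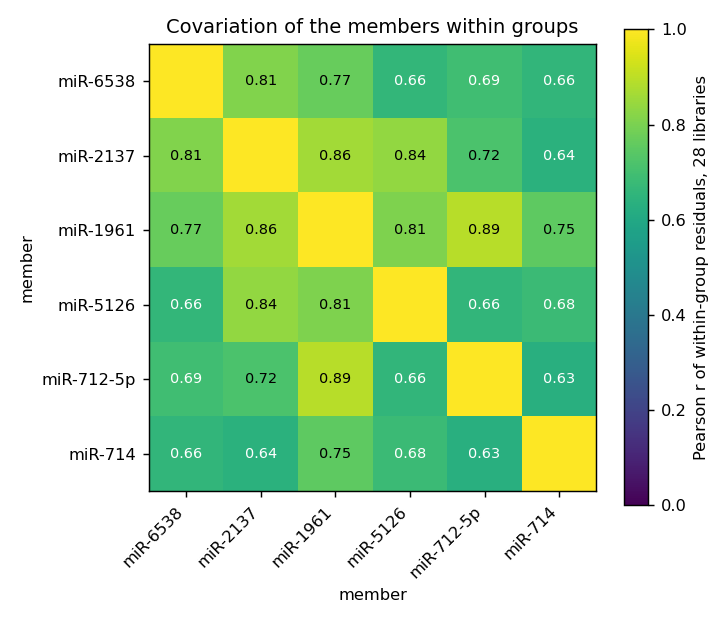
Pearson's r of each pair of selected miRNAs over 28 libraries, after removal of the group means. All 15 values lie between 0.63 and 0.89.

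Libraries with fewer reads gave the selected miRNAs a larger share. Within groups, the log2 share of the 6 correlated with the log2 number of reads at r = -0.67 and rho = -0.71 (permutation p 2e-05 and 3e-05, adjusted over 7 library measures to 0.00014 and 0.00021, n = 28 libraries), and at r = -0.72 without the 2 libraries farthest from the median depth. By table, r was -0.84 in co-ex females, -0.83 in co-ex males, -0.11 in KO females and -0.42 in KO males. The number of miRNAs with a read behaved alike (r = -0.63, rho = -0.65, adjusted permutation p 0.0085 and 0.0064), and so, more weakly, did the shares of 6 myeloid miRNAs (r = -0.41, rho = -0.50, adjusted permutation p 0.0445 and 0.0292) and of let-7 (r = -0.54, rho = -0.45, adjusted permutation p 0.0300 and 0.0649). The number of miRNAs with a read depends on depth, so it is not a separate measure. Shares are parts of 1 library total, so a larger share of the selected miRNAs leaves less for others. The permutation does not allow for this. The let-7 relation did not hold in each table, with r of -0.79 in co-ex females, -0.58 in co-ex males, -0.0082 (KO females) and 0.91 (KO males). For the myeloid share r was -0.78, -0.35, -0.33 and -0.95 in the same order. The share of the epithelial list did not pass (r = 0.23, rho = 0.17, adjusted permutation p 0.491 and 0.527), with r of -0.18, 0.43, -0.29 and 0.85 by table, nor did those of red cell (r = 0.04, rho = 0.17) and mesenchymal miRNAs (r = 0.09, rho = 0.11; adjusted permutation p 0.527 to 0.861 for both).

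**Figure D5:**
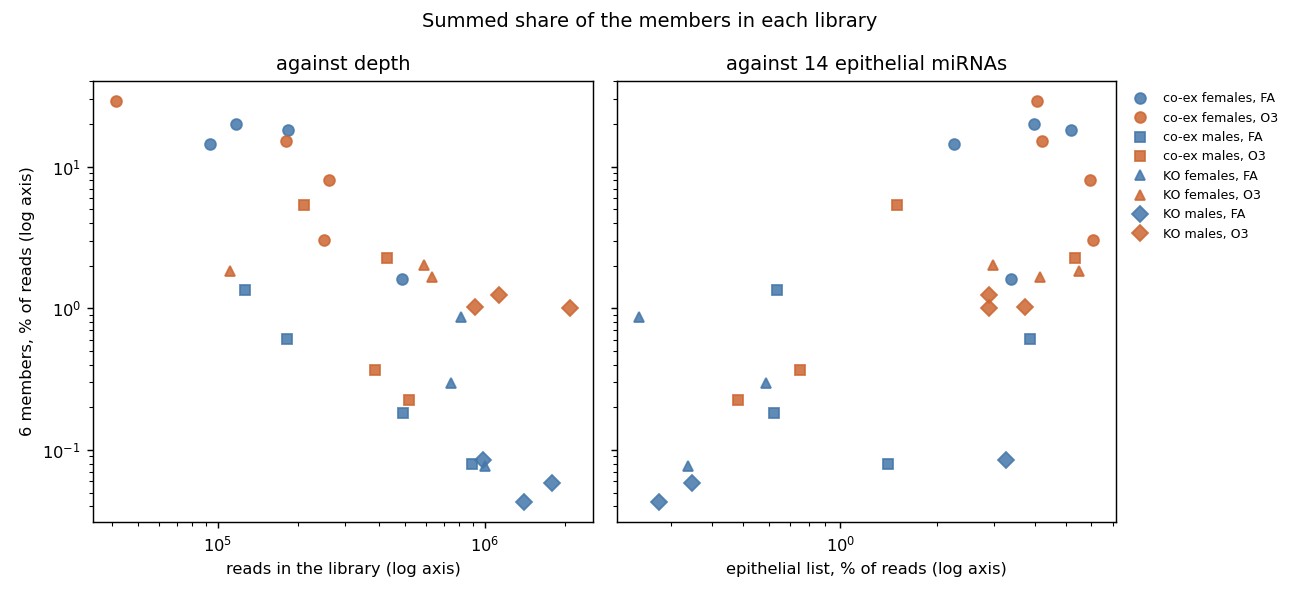
Summed share of the 6 selected miRNAs in each library against its reads (left) and against the share of 14 epithelial miRNAs (right), on log axes, FA in blue and O3 in orange. Shares run from 0.0429% to 29.1%, and the shallowest library, with 41542 reads, has the highest.

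The proportions of the 6 were not fixed across groups. miR-6538 had 0.461 to 0.695 reads for each read of miR-2137 in co-ex females after FA and 0.368 to 0.765 after O3. In co-ex males the ratio was 0.00472 to 0.156 after FA and 0.0479 to 0.655 after O3, with as few as 3 reads of miR-6538 in a library. In KO it was 0.775 to 1.49 in females and 0.8 to 1.31 in males after FA, and 1.74 to 1.89 and 1.66 to 2.71 after O3. All 12 KO ratios lay above all 16 of co-ex, by a narrow gap (0.775 against 0.765). Genotype coincides with separate tables and separate ranges of library codes, so a genotype difference cannot be told from a difference between library sets.

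miR-6538 had 1.40 to 1.78 reads for each read of miR-5126 in co-ex females after FA and 1.29 to 2.14 after O3. In co-ex males it had 0.00845 to 0.5 after FA and 0.0818 to 2.43 after O3. In KO the ratio was 0.0388 to 0.215 (females) and 0.174 to 0.853 (males) after FA, and 1.18 to 2.58 and 2.47 to 3.15 after O3, with no overlap of FA and O3 in either sex. For miR-714 over miR-712-5p, the ratio was 1.72 to 3.01 in co-ex females after FA, 1.65 to 2.64 after O3 and 1.69 to 4.18 in KO males after O3, while it was 3.17 to 45 in co-ex males after FA, 1.38 to 8 in co-ex males after O3 and 1.42 to 50.5 in KO females after O3, the last value from the library with 2 reads of miR-712-5p. Neither ratio of miR-6538 was the same in all groups.

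miR-1961, which shares the seed of let-7, varied against most of the let-7 miRNAs compared and with others. Over the 28 libraries, after removal of group means, r with miR-1961 was -0.65 for let-7a-5p, -0.42 for let-7d-5p, -0.56 for let-7e-5p, -0.70 for let-7f-5p, -0.33 for let-7g-5p and -0.23 for let-7i-5p. It was 0.50 for let-7b-5p and 0.23 for let-7c-5p (rho 0.06). These values are given as a description.

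The 5 other miRNAs whose residuals were most like the mean of the selected miRNAs, among 224 compared, were miR-3470a (r = 0.84, rho = 0.86), miR-3470b (r = 0.83, rho = 0.83), miR-690 (r = 0.80, rho = 0.80), miR-709 (r = 0.79, rho = 0.77) and miR-6240 (r = 0.77, rho = 0.77), over 28 libraries. The median r of the 224 was -0.12 and the lowest was -0.74, for miR-29a-3p. Between the co-ex sexes after FA, 4 of the 5 were lower in males by edgeR, as were 12.2% of all 238. By edgeR these were miR-709 (-5.22 ± 0.96, adjusted p 0.00926), miR-690 (-4.42 ± 0.85, adjusted p 0.0104), miR-3470a (-3.30 ± 0.87, adjusted p 0.0397) and miR-3470b (-2.64 ± 0.86, adjusted p 0.0801). miR-6240 was at -1.41 ± 0.74 (adjusted p 0.268 by edgeR). In KO females 3 of the 5 were higher after O3 by limma, miR-6240 (3.83 ± 0.78, adjusted p 0.0148), miR-690 (3.62 ± 0.62, adjusted p 0.00799) and miR-3470b (3.30 ± 0.51, adjusted p 0.00523), where 10% of all miRNAs were higher. In KO males limma called 0 of the 5 (adjusted p 0.251 to 0.764) and 0.909% of all miRNAs. By limma 4 of the 5 had an unadjusted p under 0.05 there, as did 32 of all 440. Without FA replicate 3 it called 5 of 5 and 13.8% of all 479 tested. DESeq2 called 2 of the 5 in KO males (14 of the 565 miRNAs listed) and edgeR 0 (1 of 357 tested). In co-ex mice limma, edgeR and DESeq2 called 0 of the 5 in either sex. At an unadjusted p under 0.05 by limma it was 0 in females (5.9% of all 271) and 1 in males (3.53% of all 312).

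Sequences of 3 of these 5 are shown for comparison with the selected miRNAs, seed in capitals, and G and C make up a smaller share of their bases than of miR-6538, miR-2137 and miR-5126.
miR-3470b: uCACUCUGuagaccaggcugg
miR-690: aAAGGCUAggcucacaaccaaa
miR-6240: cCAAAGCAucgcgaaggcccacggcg

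G and C made up 57.1%, 45.5% and 69.2% of their bases, and none of the 3 was found whole in the same transcripts, which hold no 28S or precursor RNA. Of 8 miRNAs set beside miR-712 and miR-714 by name as candidate pieces of ribosomal RNA (miR-712-3p, miR-715, miR-5102, miR-5105, miR-5109, miR-5115, miR-6236 and miR-6240), 2 or 3 could be tested in each table. 1 of 2 rose in KO females (miR-6240), where 10% of all miRNAs rose, with a median change of 2.71 (0.06 over all). In KO males limma called 0 of 3, or 2 of 3 without FA replicate 3, where 0.909% of all 440 and 13.8% of all 479 rose. DESeq2 called 1 of the 3 (14 of the 565 miRNAs listed) and edgeR 0 (1 of 357 tested). By limma 2 of the 3 had an unadjusted p under 0.05, as did 32 of all 440. One of those 3, miR-712-3p, had no read in the FA libraries and passed the filter through O3 alone, and the other 2 were miR-6240 (2.09) and miR-6236 (-0.40). A wider set, the miRNAs whose names carry no arm (selected miRNAs left out), had a median change of 0.88 over 46 in KO females. It holds the 5 most similar miRNAs described above, with their 3 calls in KO females and 4 between the co-ex sexes after FA. The list by name overlaps it too (miR-6240), so these counts are not separate from those above. Of these, 8 rose and 1 fell (10% and 3.13% of all 319). In KO males their median change was 0.24 over 69. There limma and edgeR called 0 (4 of 440 and 1 of 357 over all), and DESeq2 called 4 (14 of the 565 listed). By limma 11 of the 69 had an unadjusted p under 0.05, as did 32 of all 440. Without FA replicate 3, 16 of 84 rose, against 13.8% of all. Between the co-ex sexes after FA, 12 of 40 such miRNAs were lower in males, against 12.2% of all 238, with a median difference of -1.25, against 0.09 over all.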

How the data were processed

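The authors made small RNA libraries (NEXTflex kit, HiSeq 2500), trimmed reads, and aligned and counted miRNAs with Chimira, and the study's methods and the submitters' notes name CASAVA, edgeR and TCC 1.14.0. The build was not given in the sources used here. The deposited values are a signal, reads divided by a size factor per library, scaled separately in each of 4 tables. The deposited fold changes, p-values and ranks of the authors were not used. Reads were recovered from the values (100% within 0.01 of a whole number of reads in all 28 libraries). O3 and FA were compared by limma 3.58.1 (trend) after log2(value + 1). A miRNA entered if its value reached 5 in at least 4 co-ex or 3 KO libraries of the table. Sexes were compared by edgeR 4.0.16 on recovered reads (TMM, filterByExpr; the SE is from the F statistic). Benjamini-Hochberg adjustment ran over all miRNAs tested, with a threshold of 0.1. Fits were tested on simulated data. Alternatives included DESeq2 1.42.0. Depth, 41542 to 2082034 reads, sets the precision. The members and lists were chosen with earlier results of these data known. Named besides the members are the 5 miRNAs with the most similar residuals, and list members. R 4.3.3 and Python 3.11.15 were used.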

Additional observations from a re-analysis of the deposited data

Results flagged for a closer look

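In co-ex females after FA, miR-2137 was 1408 in replicate 2 and 12037 to 13068.5 in the other 3 libraries, a gap of 0.912 of the group's range, and this library stood apart from its group by Dixon's test. It is the deepest of the co-ex female libraries. In co-ex males after FA, miR-6538 was 209.8 in replicate 3 and at most 38.4 in the others, a gap of 0.835 of the range, and this library is the shallowest of its group. These were 2 flags in 28 tests of groups of 4 libraries, and chance flags about 1 in 20.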

How the results depend on the processing

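The count of selected miRNAs called between O3 and FA was 0 in both sexes of co-ex mice under each of 15 alternatives (0 to 0 with single libraries left out), and the sign of the uncalled change of miR-6538 in co-ex females, near 0, held in 9 of 14. The 6 called between the co-ex sexes after FA stayed at 6, or 4 to 6 with single libraries left out (11 of 252 to 68 of 254 miRNAs over all). Between the co-ex sexes after O3 the count was 1, and 5 with DESeq2, 5 with a replicate block and 0 to 4 with single libraries left out. Calls over all miRNAs with single libraries left out after O3 are not reported here. Over all miRNAs, edgeR and DESeq2 called 33 and 61 between the co-ex sexes after FA and 19 and 60 after O3 (63 with the block), and in KO 0 and 11 after FA and 0 and 7 after O3. In KO after FA DESeq2 called 1 selected miRNA where edgeR called 0. These causes were not tested. The count with O3 above FA in KO, 5 of 6 in females and 6 of 6 in males, was 5 to 6 and 6 to 6, while limma called 4 of 440 miRNAs in KO males and 86 of 479 without FA replicate 3. The median r of the 15 pairs was 0.72, and 0.85 in co-ex alone, 0.47 in KO alone and 0.66 to 0.77 with single libraries left out. The log2 change of miR-5126 in KO females, 0.66, was -0.041 with edgeR, -0.034 with DESeq2 and -0.35 to 1.59 with single libraries left out. No comparison had every same-numbered pair of libraries correlated above 0.1, so the numbers were not taken as pairs. Those correlations ran from -0.28 to 0.35, and this rule cannot exclude a pairing. The replicate block changed no other count of selected miRNAs. Depth limits miR-712-5p and miR-714 most, with at most 10 and 49 reads in a KO library after FA.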
